A study of Mus musculus with 2 samples.

Results

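Processed pseudogenes are copies of messenger RNAs that were reverse transcribed and inserted elsewhere in the genome, so that they lack the introns of the gene they came from, called the parent here. Most carry no promoter of their own, and many keep long stretches of the parent's sequence, so that a sequenced fragment can match both. Ribosomal protein genes and Gapdh, an enzyme of glycolysis, are known in mammals for their many processed copies. The genes described here have the GENCODE biotype processed_pseudogene and an abundance of at least 1 TPM (a level corrected for transcript length and library total) in both libraries. This rule chose 239 of the 5349 processed pseudogenes in the tables, or 4.47%, among 43346 mouse genes. The TPM values were used for this choice, so the levels below are a description and support nothing.

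The data are poly(A)+ RNA sequencing of liver from C57BL/6J mouse embryos at day 18 of gestation, in 1 group of 2 libraries numbered as biological replicates 1 and 2. Male and female tissue was pooled within each library, ribosomal RNA was depleted, RNA over 200 nt was kept, and stranded read pairs (PE101 in the labels) were made. The libraries carry different biosample labels and 1 donor label, so the spread between them may be partly technical. The expected counts on mouse genes summed to 136904842 fragments in replicate 2 and 159127981 in replicate 1. These counts are estimates, since a fragment that matches several genes is shared out between them. With 1 group there is no contrast and no p-value, and ratios between the libraries compare those libraries only. All 7 hepatocyte and all 7 erythroid markers examined reached 1 TPM in both libraries, the range of their mean levels being 63.3 to 75536 TPM and 42.5 to 90078 TPM. All 5 neutrophil and all 4 macrophage markers did so too, as did 2 of 4 brain markers, 0 of 7 testis markers and 0 of 3 oocyte markers. Of 5 markers of pancreatic acinar cells none reached 1 TPM in both libraries, and their summed level was 0.74 TPM in replicate 2 and 49.4 TPM in replicate 1. The part of that difference in the results below was not tested, and in whole liver fewer cells of a type and less RNA per cell cannot be told apart.

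Of the 239 pseudogenes, 238 matched a protein-coding transcript of another gene, and the best match was taken as the parent. Such a match need not be the gene that the copy came from. The 189 parents had a median level of 186 TPM, against 18.9 TPM for the 1640 parents of processed pseudogenes below the threshold and 9.16 TPM over the 11568 protein-coding genes that reached 1 TPM in both libraries. Counted once per copy, the parents' median was 330.4 TPM in replicate 2 and 299 TPM in replicate 1, against 108 TPM in replicate 2 and 105 TPM in replicate 1 below the threshold. The sequences of a few copies show how little separates them from their parents, and are given with GENCODE M21 sequence on mm10. They are stretches of 90 bases aligned within the parent's coding sequence, 5′ to 3′, with the bases of a copy that differ from the parent in capitals. In the parent's line the capitals mark where any copy described beside it differs. Gm7536 (chr3:24333068-24333157, plus strand) did not differ from Rpl27a, which encodes a protein of the large ribosomal subunit, over its whole length of 444 bases, and the stretch is shown because no read-length window of this copy is its own.
Gm7536: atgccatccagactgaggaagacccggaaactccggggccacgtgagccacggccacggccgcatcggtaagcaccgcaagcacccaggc
Rpl27a: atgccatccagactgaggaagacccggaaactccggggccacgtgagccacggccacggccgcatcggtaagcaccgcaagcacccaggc

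The 3 copies of Rpl23a, another large-subunit protein, each had 1 mismatch to the parent, and are shown because their levels differed between the libraries in different directions. The stretch holds the mismatches of Gm10335 (chr10:14523279-14523368, plus strand) and Gm10132 (chr14:77252024-77252113, minus strand), while that of Rpl23a-ps3 (chr14:34170856-34170945, plus strand) lies outside it.
Rpl23a-ps3: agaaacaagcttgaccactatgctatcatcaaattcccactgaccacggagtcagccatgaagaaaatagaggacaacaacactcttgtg
Gm10335: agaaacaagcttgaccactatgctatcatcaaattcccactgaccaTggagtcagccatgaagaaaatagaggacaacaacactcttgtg
Gm10132: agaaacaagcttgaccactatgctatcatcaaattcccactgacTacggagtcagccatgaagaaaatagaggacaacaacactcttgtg
Rpl23a: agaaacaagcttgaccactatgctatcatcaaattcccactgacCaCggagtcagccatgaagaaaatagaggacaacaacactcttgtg

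The 5 copies of Rpl35a had one and the same sequence, with 1 mismatch to the parent. One of them, shown because the 5 were given unequal counts, is Rpl35a-ps2 (chr1:181242121-181242210, minus strand).
Rpl35a-ps2: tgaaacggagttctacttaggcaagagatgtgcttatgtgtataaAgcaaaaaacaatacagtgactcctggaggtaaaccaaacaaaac
Rpl35a: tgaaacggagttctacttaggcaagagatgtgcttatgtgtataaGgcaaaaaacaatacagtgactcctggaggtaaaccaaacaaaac

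Rpl39-ps (chr15:102635089-102635178, plus strand) had 1 mismatch to Rpl39, in a copy of 151 bases, and is shown because none of its read-length windows occurred in another gene. The deposited tables give it a length of 355 nt, so its fragments were counted on a longer model, whose other bases these windows do not cover.
Rpl39-ps: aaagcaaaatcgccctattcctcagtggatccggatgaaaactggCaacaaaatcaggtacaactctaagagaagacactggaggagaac
Rpl39: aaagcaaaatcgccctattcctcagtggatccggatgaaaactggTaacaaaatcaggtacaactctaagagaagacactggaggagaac

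Among the copies of Gapdh, Gm10359 (chr5:105862904-105862993, minus strand) had no mismatch and Gm9522 (chr15:39181162-39181251, plus strand) had 56 over its aligned length, 7 of them in the stretch, and both are shown because these copies differ in how many fragments they share.
Gm10359: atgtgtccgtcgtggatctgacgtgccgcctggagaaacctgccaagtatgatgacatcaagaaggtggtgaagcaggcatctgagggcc
Gm9522: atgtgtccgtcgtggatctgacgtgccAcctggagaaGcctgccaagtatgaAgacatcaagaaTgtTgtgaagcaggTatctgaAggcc
Gapdh: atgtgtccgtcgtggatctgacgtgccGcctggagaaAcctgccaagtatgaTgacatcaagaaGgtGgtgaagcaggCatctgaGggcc

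Gm6548 (chr17:78850905-78850994, minus strand), a copy of the translation elongation factor gene Eef1a1, had 36 mismatches, 8 of them in the stretch, and is shown as a copy with many bases of its own.
Gm6548: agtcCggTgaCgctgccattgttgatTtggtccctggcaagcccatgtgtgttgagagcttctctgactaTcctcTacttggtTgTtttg
Eef1a1: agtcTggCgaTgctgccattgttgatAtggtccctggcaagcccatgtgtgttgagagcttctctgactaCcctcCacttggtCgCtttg

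The pseudogenes at 1 TPM or more were closer to their parents than the 5110 below it. Median identity was 99.6% against 89.9% over the 4877 of those with a parent. An identity of at least 99% was found in 174 of 238, or 73.1%, against 265 of 4877, or 5.43%. The aligned part had an identity of 100% in 58 of 238, against 41 of 4877. Each copy was read in windows of the length of 1 read. A median of 79.4% of the windows in the pseudogenes at 1 TPM or more occurred in a transcript of some other gene, against 0% in those below. All windows occurred elsewhere in 75 of 239, some in 153, and none in 11. Among the 5094 below the threshold that were long enough to hold a window, these numbers were 195, 1547 and 3352. Since fragments were read from both ends, a pair spans more than 1 window and can reach a mismatch that 1 read does not. The deposited length equalled the length examined for 178 of 239. For the others, identity and windows may not cover the model on which fragments were counted.

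**Figure D1:**
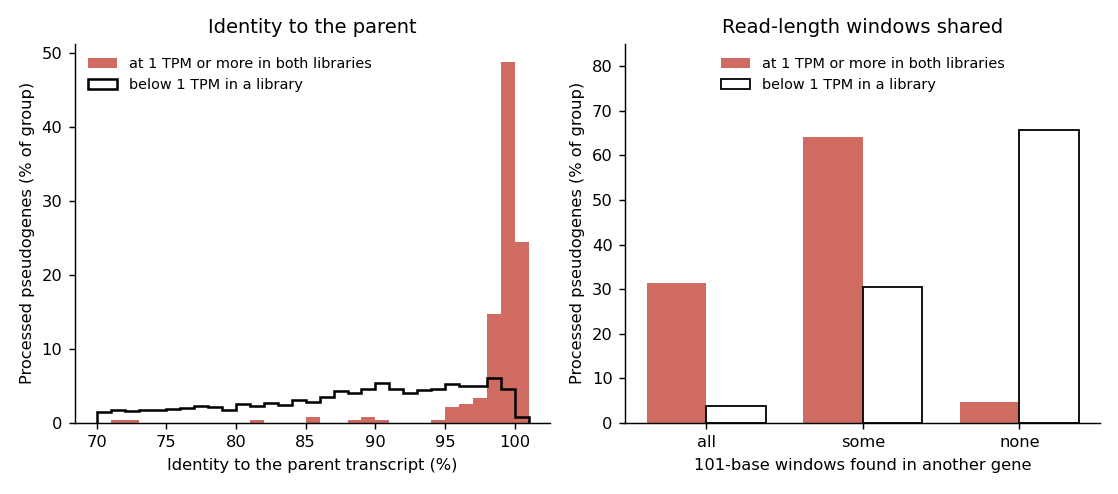
Left: identity to the parent transcript in %, against the % of processed pseudogenes in each group, for those at the threshold or above (filled, n = 238) and those below it (line, n = 4877), the last bin holding 100%. Right: % of each group with all, some or none of their read-length windows found in another gene (n = 239 and 5094); 31.4% of the filled group and 3.83% of the open group shared all windows.

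Reading frame, length, base composition and position were compared in the same way. The longest reading frame from a start codon to a stop codon or the annotated end reached at least 90% of the parent's coding length in 169 of 238, or 71.0%, against 761 of 4877, or 15.6%, below the threshold. Among copies of at least 99% identity the shares were 142 of 174, or 81.6%, and 159 of 265, or 60%. In those 2 sets the parents had a median mean count of 29318 fragments, against 6877 below the threshold, and the copies had a median length of 491 bases, against 537. Over all copies the median length was 496 bases against 549 below the threshold, and the median GC content was 50.7% against 47.6%. Of the mismatches within parent coding sequence, 49.3% of 1433 fell on codon position 3 in the pseudogenes at 1 TPM or more, against 42.7% of 272483 in those below. Mismatches were pooled over copies, so copies with many of them weigh most. Over the whole alignment the pseudogenes at 1 TPM or more had a median of 2 mismatches and at most 135. One exon was annotated for 235 of 239, and the parent, counted once per copy, had several for 237 of 238. On the same strand, 39 of 239, or 16.3%, lay within an intron of another gene, against 580 of 5110, or 11.4%, below the threshold. An exon was overlapped by 6, or 2.51%, against 51, or 0.998%, below the threshold. The other 194, or 81.2%, did neither, against 87.7% below the threshold. For the 45 copies at 1 TPM or more that overlapped, fragments of the host cannot be told apart from those of the copy by position alone.

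Together the 239 held 0.611% ± 0.0472 of the TPM of all mouse genes (SD, n = 2), being 0.578% in replicate 2 and 0.644% in replicate 1. Their share of the expected counts was 0.162% in replicate 2 and 0.213% in replicate 1. The median level was 3.73 TPM in replicate 2 and 5.6 TPM in replicate 1. Just inside the threshold stood Gm2606 at 1.00 TPM in replicate 2 and 1.30 TPM in replicate 1, Gm1840 at 1.01 TPM in replicate 2 and 1.30 TPM in replicate 1 and Gm13394 at 1.02 TPM in replicate 2 and 1.85 TPM in replicate 1. Just outside it stood Gm10269 at 0.98 TPM in replicate 2 and 1.26 TPM in replicate 1, Gm11249 at 0.98 TPM in replicate 2 and 1.83 TPM in replicate 1 and Gm3571 at 0.97 TPM in replicate 2 and 1.82 TPM in replicate 1. The lower bound of the deposited interval of the TPM, whose level is not given in the sources used here, fell under 1 TPM in at least 1 library for 54 of the 239.

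By the parent's symbol, ribosomal protein genes supplied the most, with 84 of 239 copies from 53 parents, out of 1385 processed copies of such genes in the tables. That is 6.06% of them, against 4.47% over all processed pseudogenes. The share was 8.94% for the respiratory chain, 8.26% for ubiquitin and proteasome and 7.55% for translation factors. It was 6.02% for cytoskeleton, 5.79% for chaperones, 5.26% for glycolysis, 5.08% for chromatin and nuclear proteins and 3.18% in no list. The ribosomal protein copies had a summed level of 3876 TPM in replicate 2 and 3862 TPM in replicate 1. Their median identity was 99.6%, and their median ratio to the parent was 0.0108. The highest of all by mean level was Rpl27-ps3, a copy of the large-subunit gene Rpl27 without a mismatch over the 411 bases compared. Rpl27-ps3 was counted on a longer model of 475 nt, whose other bases were not compared. It had 789 TPM in replicate 2 and 615 TPM in replicate 1, against 335 TPM in replicate 2 and 217 TPM in replicate 1 for Rpl27, so the copy's TPM was above its parent's in both. Gm7536 had 806 TPM in replicate 2 and 589 TPM in replicate 1, against 374 TPM in replicate 2 and 331 TPM in replicate 1 for Rpl27a. Its deposited posterior standard deviation (SD), which describes how far the count could move when fragments are shared out again, was 0.416% of the count in replicate 2 and 0.527% in replicate 1. A copy without a window of its own thus carried a small deposited SD in both libraries. Rpl31-ps8, a copy of the large-subunit gene Rpl31, had 442 TPM in replicate 2 and 379 TPM in replicate 1, against 725 TPM in replicate 2 and 714 TPM in replicate 1 for Rpl31. Rpl23a-ps3 had 251 TPM in replicate 2 and 200.2 TPM in replicate 1, against 1323 TPM in replicate 2 and 1172 TPM in replicate 1 for Rpl23a. Both copies were below their parents in both libraries. Rpl15-ps3, a copy of the large-subunit gene Rpl15, had 118 TPM in replicate 2 and 235 TPM in replicate 1, against 613 TPM in replicate 2 and 425 TPM in replicate 1 for Rpl15. Copy and parent thus differed between the libraries in opposite directions. Rps6-ps4 had 146 TPM in replicate 2 and 183 TPM in replicate 1, against 1169 TPM in replicate 2 and 890.5 TPM in replicate 1 for Rps6, a small-subunit protein, and showed the same opposition. Rpl10a-ps1 had 94.6 TPM in replicate 2 and 121.2 TPM in replicate 1, against 1177 TPM in replicate 2 and 939.8 TPM in replicate 1 for Rpl10a. Gm4149, which overlaps an annotated exon of Mir682, listed at 0 TPM, on its strand, had 109.84 TPM in replicate 2 and 109.85 TPM in replicate 1, against 785 TPM in replicate 2 and 724 TPM in replicate 1 for its parent Rpl37a.

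Glycolysis genes supplied 13 copies, 10 of them of Gapdh, with summed levels of 325 TPM in replicate 2 and 555 TPM in replicate 1. Pgam1-ps2 had 71.5 TPM in replicate 2 and 80.7 TPM in replicate 1 against 354 TPM in replicate 2 and 308 TPM in replicate 1 for Pgam1, a phosphoglycerate mutase. Pgk1-rs7 had 47.0 TPM in replicate 2 and 73.1 TPM in replicate 1 against 279 TPM in replicate 2 and 244 TPM in replicate 1 for Pgk1, a phosphoglycerate kinase. Both copies had no mismatch to the parent over the bases compared, 765 for Pgam1-ps2 and 1255 for Pgk1-rs7. The deposited length of Pgk1-rs7 was 1731 nt, and its other bases were not compared. The respiratory chain supplied 11 copies, led by Ndufb4c, which had no mismatch to Ndufb4, a subunit of complex I. Ndufb4c had 168 TPM in replicate 2 and 172 TPM in replicate 1, against 32 TPM in replicate 2 and 32.7 TPM in replicate 1 for Ndufb4. The copy lies in an intron of Mroh5, a gene listed at 0 TPM in both libraries. Chromatin and nuclear protein genes supplied 18 copies. The highest, Gm15387, had 56.2 TPM in replicate 2 and 63.8 TPM in replicate 1 against 115 TPM in replicate 2 and 118 TPM in replicate 1 for Hmgb1, a chromatin protein. Gm9800 had 32.9 TPM in replicate 2 and 37.4 TPM in replicate 1 against 683 TPM in replicate 2 and 624 TPM in replicate 1 for Ptma, which encodes prothymosin alpha. Gm10241 had 18.3 TPM in replicate 2 and 38.6 TPM in replicate 1 against 123 TPM in replicate 2 and 116 TPM in replicate 1 for Sumo2, a ubiquitin-like modifier. Among the 8 copies of translation factor genes, Tpt1-ps3 had 25.7 TPM in replicate 2 and 47.6 TPM in replicate 1 against 1236 TPM in replicate 2 and 1049.6 TPM in replicate 1 for Tpt1. Among the 7 copies of chaperone genes, Gm10123 had 72.7 TPM in replicate 2 and 125.6 TPM in replicate 1 against 1599 TPM in replicate 2 and 1519 TPM in replicate 1 for Ppia, a peptidyl-prolyl isomerase. Gm8355 had 10.4 TPM in replicate 2 and 21.6 TPM in replicate 1 against 706 TPM in replicate 2 and 997 TPM in replicate 1 for Hspa8, a chaperone of the cytosol. By TPM these 3 copies were lower in replicate 2, while Tpt1 and Ppia were higher there and Hspa8 was lower. Ubiquitin and proteasome symbols supplied 9 copies, Gm7367 of Ubald2 among them by its first letters alone, and cytoskeleton genes 5. The erythroid and plasma list supplied 1 copy, Apoo-ps at 1.25 TPM in replicate 2 and 1.44 TPM in replicate 1. Its parent Apoo carries an apolipoprotein symbol and encodes a protein of the mitochondrial inner membrane. The other 82 copies with a parent belonged to none of these lists, among them Gm12481 at 99.04 TPM in replicate 2 and 164.7 TPM in replicate 1, against 539 TPM in replicate 2 and 288 TPM in replicate 1 for Serf2.

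The copies were mostly far below their parents. The median TPM ratio to the parent was 0.0202 in replicate 2 and 0.0366 in replicate 1. The ratio was under 0.1 in both libraries for 173 of 238 and above 1 in both for 7. By expected count, without length scaling, the median ratio was 0.00912. The 7 were Ndufb4c, Gm10557, Gm4735, Rpl27-ps3, Gm7536, Gm7367 and Gm7488. By expected count Ndufb4c, Rpl27-ps3 and Gm4735 were above their parents in both libraries, whereas Gm7536, Gm10557, Gm7367 and Gm7488 were below them. Gm7536 had 22825 fragments in replicate 2 and 20994 fragments in replicate 1, against 43674 fragments in replicate 2 and 46562 fragments in replicate 1 for Rpl27a. By TPM Ndufb4c stood at 5.25 ± 0.0180 times its parent (SD, n = 2). By expected count it had 3578 fragments in replicate 2 and 4683 fragments in replicate 1, against 3021 fragments in replicate 2 and 3759 fragments in replicate 1 for Ndufb4. Gm10557 had 5.35 TPM in replicate 2 and 4.16 TPM in replicate 1 against 0.92 TPM in replicate 2 and 0.89 TPM in replicate 1 for Cdh11, a cadherin. Its identity to Cdh11 was 96.3%, while 93.8% of its windows occurred in some other gene. Whether those windows lie in Cdh11 was not examined. Gm4735 had 2.94 TPM in replicate 2 and 5.80 TPM in replicate 1 against 0.87 TPM in replicate 2 and 1.75 TPM in replicate 1 for its best match Eno1b, an enolase gene. Here copy and best match were both lower in replicate 2. Whether Gm4735 came from Eno1b was not examined. Gm7367 had 53.6 TPM in replicate 2 and 50.6 TPM in replicate 1 against 38.3 TPM in replicate 2 and 32.6 TPM in replicate 1 for Ubald2. Gm7488 had 40.0 TPM in replicate 2 and 29.7 TPM in replicate 1 against 24.9 TPM in replicate 2 and 23.8 TPM in replicate 1 for Nudt21, a factor of messenger RNA 3′ end processing. At the other end stood 3 copies of Gapdh, namely Gm2606, Gm5559 and Gm13394, and Rpl36-ps2. Their mean ratios to the parent were between 0.000435 and 0.000729. Across 238 copies the mean ratio and the identity had a Spearman rho of 0.45, and the copies share both libraries and, in part, their parents. The ratio holds the TPM by which the copies were chosen, so this rho describes the chosen copies only and supports nothing.

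**Figure D2:**
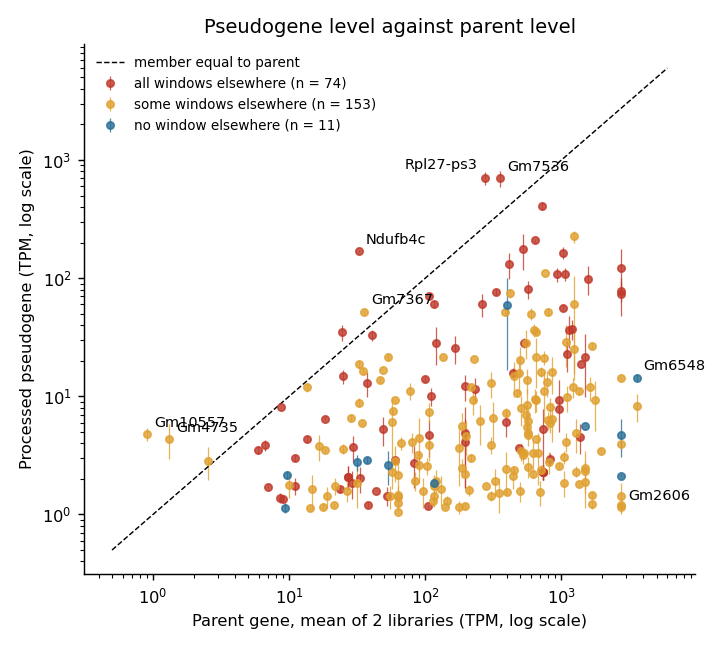
TPM of 238 processed pseudogenes (vertical, log scale; point at the mean and bar over the 2 libraries) against the mean TPM of the parent (horizontal, log scale), coloured by how many of the read-length windows occur in another gene. 7 copies lie above the dashed line of equality in both libraries; the copies without a shared window (n = 11) lie below it.

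Effective length, the number of positions at which a fragment could start in a transcript, was under 50 nt in at least 1 library for 9 copies. Few fragments make a high TPM at such lengths. Gm10443, a copy of the small-subunit gene Rps28, had 273 fragments in replicate 2 and 360.2 fragments in replicate 1 over an effective length of 10.4 nt in replicate 2 and 10.8 nt in replicate 1, which gave 202 TPM in replicate 2 and 215 TPM in replicate 1. Rps28 had 741 TPM in replicate 2 and 547 TPM in replicate 1. Gm14303, a copy of the small-subunit gene Rps29, had 3.86 fragments in replicate 2 and 15.3 fragments in replicate 1 over 3.04 nt in replicate 2 and 2.94 nt in replicate 1, which gave 9.83 TPM in replicate 2 and 33.5 TPM in replicate 1. Gm12338, a copy of the cytochrome oxidase gene Cox7c, had 53.3 fragments in replicate 2 and 88.9 fragments in replicate 1 over 6.19 nt in replicate 2 and 6.07 nt in replicate 1, or 66.7 TPM in replicate 2 and 94.3 TPM in replicate 1. The 9 copies had a median mean count of 40.9 fragments and a median mean level of 21.7 TPM.

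The deposited posterior SD was wider for these copies than for other genes. It was at least 10% of the posterior mean count in both libraries for 45 of 239, or 18.8%. The same held for 0.732% of the 12291 mouse genes that reached 1 TPM in both, the copies included, and for 0.199% of the 11568 protein-coding genes among them. The posterior SD was 0 in both libraries for 11 copies, or 4.60%, against 87.3% of those protein-coding genes. Among the 75 copies with all windows elsewhere 28 had an SD of at least 10% in both libraries, among the 153 with some windows elsewhere 17, and among the 11 with none 0. A full overlap with other genes did not always come with a wide SD, since 40 of the 75 had an SD under 10% in both libraries. With members and SD taken from 1 library alone, 71 copies had an SD of at least 10% in replicate 2 and 57 in replicate 1, so leaving out replicate 1 moved the count by over 1.5 times. Across the 239 copies the share of windows found elsewhere and the mean relative SD had a Spearman rho of 0.49, over values that share the same 2 libraries.

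**Figure D3:**
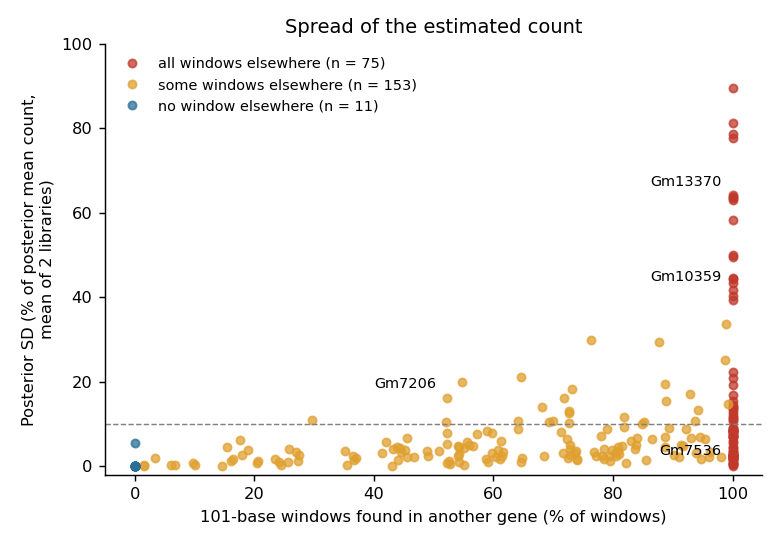
Posterior SD as % of the posterior mean count (mean of the 2 libraries) against the % of read-length windows found in another gene, for 239 processed pseudogenes; the dashed line marks 10%. The values above 40% all lie at 100% shared windows, where Gm7536 lies near 0 as well.

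Families with several copies showed how counts were shared. The 4 Rpl35a copies Rpl35a-ps3, Rpl35a-ps4, Rpl35a-ps6 and Gm10243 each had 37.0 fragments in replicate 2 and 36.1 in replicate 1, hence 2.64 TPM in replicate 2 and 1.96 TPM in replicate 1. Their SD lay between 79.4% and 95.1% of the count in replicate 2 and between 67.5% and 96.8% in replicate 1. The fifth copy of the same sequence, Rpl35a-ps2, also had 37.0 fragments in replicate 2 but 144 in replicate 1, and so 2.64 TPM in replicate 2 and 7.85 TPM in replicate 1. Identical sequences were thus given equal counts in one library and unequal counts in the other. The copies Gm10240 and Gm13370 of Rpl21, identical to each other, had 56.3 fragments each in replicate 2, and 337 and 269 in replicate 1. The third copy, Gm10163, went the other way with 505 fragments in replicate 2 and 375 fragments in replicate 1. Summed, the 3 had 18.6 TPM in replicate 2 and 23.6 TPM in replicate 1, against 208 TPM in replicate 2 and 187 TPM in replicate 1 for Rpl21.

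The 10 Gapdh copies were chosen from 195 in the tables and had summed levels of 206 TPM in replicate 2 and 400.3 TPM in replicate 1, against 3092 TPM in replicate 2 and 2380 TPM in replicate 1 for Gapdh. Gm10359 and Gm12671 share one sequence without a mismatch to Gapdh, and had 69.4 TPM in replicate 2 and 177 TPM in replicate 1 for Gm10359 and 62.4 TPM in replicate 2 and 92.8 TPM in replicate 1 for Gm12671. Gm7336 had 47.6 TPM in replicate 2 and 99.4 TPM in replicate 1. By TPM all 3 were lower in replicate 2 while Gapdh was higher there. From counts scaled by TMM, described below, their log2 ratios were -1.47 for Gm10359, -0.69 for Gm12671 and -1.18 for Gm7336. By that measure Gapdh stood at 0.07. The SD of the 3 copies was between 35.0% and 64.2% of the count. Of the 4 other copies with 1 mismatch and levels under 5 TPM, Gm12070 had 4.14 TPM in replicate 2 and 3.71 TPM in replicate 1 and Gm5559 had 1.24 TPM in replicate 2 and 1.18 TPM in replicate 1. The other 2, Gm13394 and Gm2606, given above at the threshold, were lower in replicate 2. Gm9522 and Gm5345, at 85.8% and 90.7% identity and with no window elsewhere, had an SD of 0. Gm9522 had 279 fragments in replicate 2 and 712 fragments in replicate 1, and Gm5345 had 212 fragments in replicate 2 and 271 fragments in replicate 1. Gm9522 was lower in replicate 2 beyond 2-fold even so, and Gm5345 was not. For Rps2, a small-subunit gene at 1526 TPM in replicate 2 and 1437 TPM in replicate 1, the copy Gm14276 of 85.9% identity had 5.72 TPM in replicate 2 and 5.59 TPM in replicate 1 and an SD of 0. The other 3 Rps2 copies, Gm12366, Rps2-ps6 and Gm5786, had between 1.13 and 1.78 TPM in replicate 2 and between 2.64 and 3.44 TPM in replicate 1. From scaled counts, the copy without a shared window had a log2 ratio of -0.10 between the libraries. The 3 with shared windows had between -0.81 and -1.34. The 3 copies of Hmgb1 summed to 59.1 TPM in replicate 2 and 67.5 TPM in replicate 1, against 115 TPM in replicate 2 and 118 TPM in replicate 1 for Hmgb1.

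**Figure D4:**
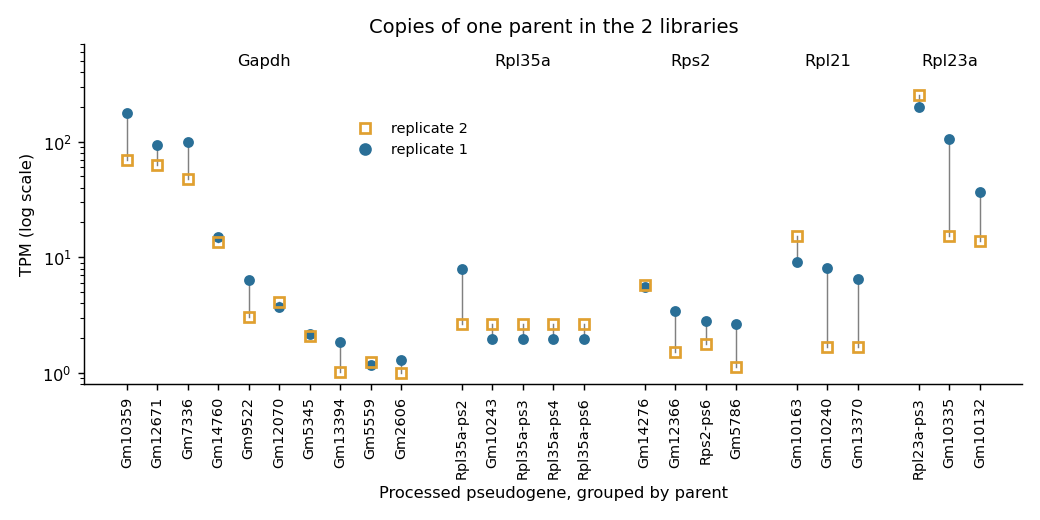
TPM (log scale) of the processed pseudogenes of 5 parents in replicate 2 (open squares) and replicate 1 (filled circles), joined by a line for each copy. The libraries lie apart for Gm10335 (15.4 TPM in replicate 2 and 105 TPM in replicate 1) and together for Gm14276 (5.72 TPM in replicate 2 and 5.59 TPM in replicate 1).

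Between the libraries the copies were mostly lower in replicate 2. At a mean count of at least 50, and with counts scaled by TMM (a trimmed mean of log ratios), 207 copies were compared. Of these 42 were lower and 1 was higher beyond 2-fold, against 1.47% and 0.348% of all 14955 mouse genes at that count. Beyond 2-fold in either direction were 43 of 207, or 20.8%, against 1.82% of all genes. Lower by any amount were 180 of 207, against 50% of all genes. The median log2 ratio of replicate 2 over replicate 1 was -0.55 for the copies and 0.01 for their parents, counted once per copy. Beyond 2-fold was 1 of 206 parents, Eno1b at -1.13. Across the 206 pairs the log2 ratios of copy and parent had a Spearman rho of 0.08. With the TPM ratio in place of scaled counts, 28 of 207 copies were lower and 2 higher beyond 2-fold, against 177 and 89 of the 14955 genes. The median of all genes moved to 0.11 and that of the copies to -0.39. Relative to that median of all genes, 36 copies were lower and 2 higher beyond 2-fold.

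Rpl39-ps was the copy higher beyond 2-fold. It had 100.9 TPM in replicate 2 and 16.7 TPM in replicate 1, from 1697 fragments in replicate 2 and 365 fragments in replicate 1, while Rpl39, a small protein of the large subunit, had 419 TPM in replicate 2 and 377 TPM in replicate 1. Its log2 ratio was 2.38, and that of Rpl39 was 0.01. Its deposited intervals of 90.8 to 122 TPM in replicate 2 and 14.8 to 32.8 TPM in replicate 1 did not overlap. Each interval describes 1 library, at a level not given, and holds no spread between libraries. How many other copies or genes had intervals apart was not counted. The largest difference in the other direction was that of Gm10335, with 15.4 TPM in replicate 2 and 105 TPM in replicate 1 and a log2 ratio of -2.93. Gm10132 of the same parent had 13.8 TPM in replicate 2 and 36.7 TPM in replicate 1, whereas Rpl23a-ps3 was higher in replicate 2. Summed over the 3 Rpl23a copies the log2 ratio was -0.37, and Rpl23a stood at 0.03. Gm10240 and Gm13370 followed at -2.41 and -2.09, and Gm2962, a copy of the complex III gene Uqcrb, at -1.87. Gm2962 had 25 fragments in replicate 2 and 104 fragments in replicate 1 with 6.78% of its windows elsewhere and an SD of 0.12% of the count in replicate 2 and 0.608% in replicate 1. After Rpl39-ps, the next higher in replicate 2 were Gm7206 at 0.94, Gm10163 at 0.59, Gm14176 at 0.56 and Gm16199 at 0.38. By list, against 42 of 207 over all copies, 17 of 75 copies of ribosomal protein genes were lower beyond 2-fold, 3 of 13 of glycolysis genes, 3 of 9 of the respiratory chain and 2 of 16 of chromatin and nuclear protein genes. The same held for 2 of 8 copies of ubiquitin and proteasome genes, 2 of 7 of translation factors, 2 of 6 of chaperones, 0 of 4 of cytoskeleton genes, 11 of 67 in no list and 0 of the 2 remaining. These lists were not tested against each other. Of the copies with all, some and no windows elsewhere, 15 of 63, 26 of 135 and 2 of 9 were beyond 2-fold in either direction.

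**Figure D5:**
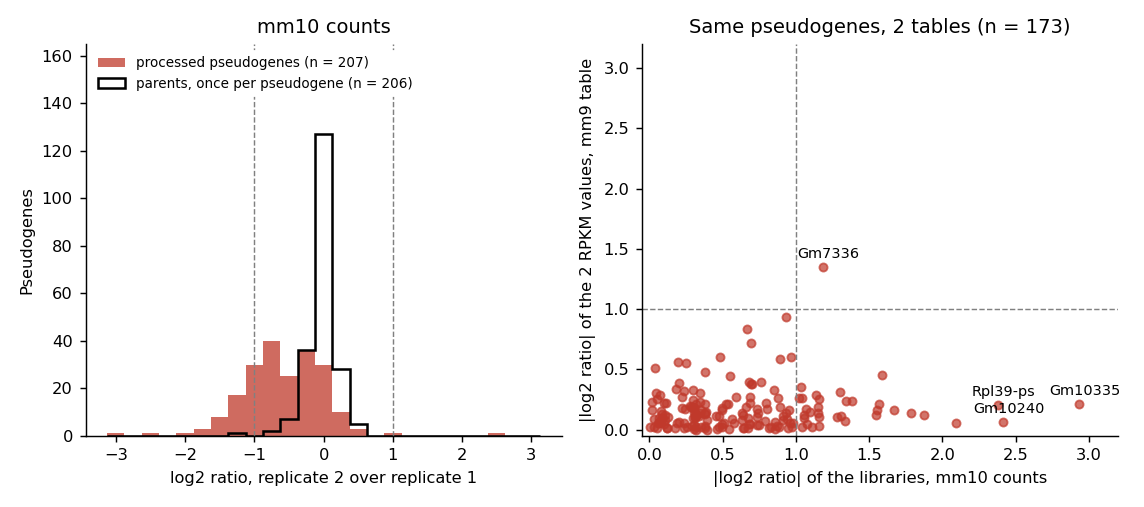
Left: log2 ratio of replicate 2 over replicate 1 from scaled counts for 207 processed pseudogenes (filled) and their parents, once per pseudogene (line, n = 206); dashed lines mark 2-fold, and the medians are -0.55 and 0.01. Right: the size of that log2 ratio (horizontal) against the size of the log2 ratio of the 2 RPKM values in the mm9 table (vertical) for 173 pseudogenes; Gm7336 alone lies above 1 on the vertical axis, against 34 past 1 on the horizontal one.

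The authors' gene table on mm9, made with another annotation, gave other values for the same copies. It gives 2 RPKM values (read counts scaled by gene length and library total) for each gene, which are not tied to a numbered replicate, so only the size of their ratio was used. It held 201 of the 239 copies, of which 189, or 94.0%, had at least 1 RPKM in both values, against 353 of 3608, or 9.78%, below the TPM threshold. These values come from the same 2 libraries by which the copies were chosen, so this contrast is a description and supports nothing. For 173 of the copies compared above, both values were above 0. Of these, 34 were beyond 2-fold on mm10 and 1 was between the 2 values of the authors' mm9 table, and the median size of the log2 ratio was 0.53 and 0.13. The same share over all genes of the mm9 table is not given here. The mm9 count thus has no background, and the cause of the difference between the builds was not tested. Gm10335 had 115 and 134 RPKM in the authors' mm9 table, and Rpl39-ps had 89.96 and 78.0 RPKM. On mm10 these copies had the largest difference in each direction between the libraries. The one beyond 2-fold in the authors' mm9 table was Gm7336, at 0.0018 and 0.0046 RPKM.

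The ratio of copy to parent also stood higher in the mm9 table. Over 196 copies with a value for both genes, the median ratio was 1.52 in the authors' mm9 table and 0.0329 on mm10, and it was higher on mm9 for 184. Gm2606 had 100.4 and 89.6 RPKM in the authors' mm9 table against 26.99 and 28.8 RPKM for Gapdh, but 1.00 TPM in replicate 2 and 1.30 TPM in replicate 1 against 3092 TPM in replicate 2 and 2380 TPM in replicate 1 on mm10. Gm7536 had 246 and 216 RPKM in the authors' mm9 table against 14.3 and 13.2 RPKM for Rpl27a. For the 61 copies with all windows elsewhere the median ratio was 3.04 on mm9 and 0.109 on mm10, and for the 127 with some windows elsewhere 1.41 and 0.0205. For the 8 with no window elsewhere it was 0.0460 and 0.0828. The tables differ in build, annotation and unit, and which of these goes with the difference was not tested. In the authors' contig list on mm9, stretches of coverage on the copy's strand spanned the whole copy for 164 of 201, or 81.6%, against 16.9% below the threshold. In the authors' junction list, 195 of 201, or 97.01%, held at least 1 end of a splice junction on their strand, against 30.4% below the threshold, although nearly all are annotated with 1 exon. The median number of such junctions per copy was 11. Both lists come from the same 2 libraries by which the copies were chosen. Their contrasts with the copies below the threshold are therefore a description and support nothing.

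The 11 copies without a shared window were Gm6548, Rpl39-ps, Gm14276, Gm9522, Gm5970, Gm16574, Gm12250, Gm5345, Hmgb1-ps8, Gm12276 and Gm17195. For Rpl39-ps this holds for the 151 bases examined and was not shown for the 355-nt model on which it was counted, and 51.0% of its windows of 50 bases occurred elsewhere. The 11 had a median identity to the parent of 88.1%, and their posterior SD was under 10% in both libraries in all 11 and 0 in 9. Rpl39-ps, at 5.07% in replicate 2 and 5.80% in replicate 1, was the one with an SD above 1%. Gm6548 had 13.5 TPM in replicate 2 and 15.3 TPM in replicate 1, from 1639 fragments in replicate 2 and 2262 fragments in replicate 1, against 3701 TPM in replicate 2 and 3418 TPM in replicate 1 for Eef1a1. The longest reading frame of Gm6548 had 31.0% of the parent's coding length, and whether it lies in the parent's frame was not examined. Gm12250 had 2.01 TPM in replicate 2 and 2.31 TPM in replicate 1 from 272 fragments in replicate 2 and 381 fragments in replicate 1, and matched Tgtp1, an interferon-inducible GTPase gene, at 71.3% identity. Gm16574 had 3.17 TPM in replicate 2 and 2.35 TPM in replicate 1, from 213 fragments in replicate 2 and 194 fragments in replicate 1, and matched Rangap1, a gene of nuclear transport, at 89.3%. It lies in an intron of Airn, a noncoding RNA of an imprinted locus, on the same strand. Gm5970 had 2.72 TPM in replicate 2 and 3.09 TPM in replicate 1 against 30.3 TPM in replicate 2 and 44.9 TPM in replicate 1 for its parent Iigp1, another interferon-inducible GTPase gene. Gm12276 had 3.44 TPM in replicate 2 and 1.79 TPM in replicate 1 from 34 fragments in replicate 2 and 24 fragments in replicate 1, few enough for a large counting error. Values for 8 of the 11 stood in the authors' mm9 table, and 2 of these, Gm6548 and Rpl39-ps, were at 1 RPKM or more in both. The median of the 8 was 0.617 RPKM in the second value and 0.581 RPKM in the first, against 17.7 RPKM and 18.7 RPKM for the 63 copies with all windows elsewhere. Next to these stood Gm11843, a copy of the ubiquitin conjugation gene Ube2v2 at 3.64 TPM in replicate 2 and 3.37 TPM in replicate 1 with 1.54% of its windows elsewhere, and Gm12696, a copy of Hnrnpc at 17.0 TPM in replicate 2 and 16.6 TPM in replicate 1 with 14.5%. Their log2 ratios from scaled counts were -0.06 for Gm11843 and -0.09 for Gm12696.

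Overlap with an annotated exon of another gene on the same strand was found for 6 copies, or 2.51%, against 0.998% below the threshold. Gm17084, the copy without a parent by the limits used, overlaps an exon of Ripk1, a kinase of cell death signalling, and had 4.52 TPM in replicate 2 and 4.11 TPM in replicate 1 with all its windows in another gene. Marcksl1-ps4 overlaps an exon of Akr1c19 and also had all its windows in another gene. It had 1.51 TPM in replicate 2 and 2.53 TPM in replicate 1, from 13 fragments in replicate 2 and 30 fragments in replicate 1. For both copies the overlapped gene was among those searched, and which gene held the windows was not examined. Gm10774, a copy of Polr2l, a subunit of RNA polymerases, overlaps an exon of Usp50 and had 4.57 TPM in replicate 2 and 4.13 TPM in replicate 1 from 5.21 fragments in replicate 2 and 5.72 fragments in replicate 1. The others were Gm4149, Rpl19-ps11 and Gm12715. Rpl19-ps11 had 47.8 TPM in replicate 2 and 55.4 TPM in replicate 1 against 853 TPM in replicate 2 and 729 TPM in replicate 1 for Rpl19, and Gm12715 had 6.91 TPM in replicate 2 and 11.5 TPM in replicate 1 against 228 TPM in replicate 2 and 217 TPM in replicate 1 for Actg1, a cytoplasmic actin.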

How the data were processed

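The members, gene lists and limits were chosen with earlier results of these data known. Expected counts, TPM and FPKM per gene were deposited for each library on mm10 with GENCODE M4, per the submitters' processing notes. The posterior SD, effective lengths and TPM intervals come from the same deposited tables. On mm9 with ENSEMBL 65, the authors deposited RPKM per gene, junction read counts and contig signal over both replicates, whose scale is not given. The sources used here name no aligner or quantifier. Biotypes, positions and transcripts were taken from GENCODE M21 by identifier (42462 of 43346 matched, and the deposited length equalled the M21 length for 178 of 239 copies). No coordinate was converted between builds. Rows that name no mouse gene held 2.13% and 2.83% of the expected counts in replicates 2 and 1 and were left out.

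Parents were searched with blastn 2.17.0 among protein-coding transcripts of genes elsewhere (at least 70% identity over at least 30% of the copy, best score, ties by mean TPM). Windows of the length of 1 read were looked up on both strands in transcripts of all other genes, overlapping ones included. Expected counts were rounded, scaled by TMM (edgeR 4.0.16, R 4.3.3), and 0.5 was added before log2 ratios of replicate 2 over replicate 1. No test was made. Steps were tested on simulated data. The genes named are among the highest and lowest by level, posterior SD, ratio to the parent, log2 ratio and window share, those at the threshold, those of the parents with most copies and the first of each list, with their parents. Counts of 11 or fewer were named in full after their values were seen (copies above the parent, without a shared window, or over an exon). Rpl21, Rpl23a and Hmgb1, tied with other parents at 3 copies, were also chosen after their values were seen. DESeq2 1.42.0 size factors were an alternative.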

Additional observations from a re-analysis of the deposited data

How the results depend on the processing

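The number of copies was 164 to 310 with limits of 2 and 0.5 TPM, 232 with 1 FPKM, 263 with transcribed processed pseudogenes added, 230 at effective lengths of at least 50 nt, and 386 with the posterior mean TPM. The last setting moved the median ratio to the parent to 0.00746. Leaving out a replicate gave 252 to 293 copies, 0.580% to 0.653% of TPM, median ratios of 0.0201 to 0.0271, and 57 to 71 copies with a posterior SD of at least 10%. That count was 24 with the limit of 2 TPM, and 93 and 19 with SD limits of 5% and 20%. The median share of windows found elsewhere was 89.8% with windows of 50 bases and 71.6% in protein-coding transcripts only. By expected count without length scaling the median ratio to the parent was 0.00912. The count beyond 2-fold was between 30 and 55 under the planned settings. It was 1 between the 2 RPKM values of the mm9 table, chosen after seeing the data, as was the limit of 50 nt. It was also 1 when copy and parent were summed, likewise chosen later, but at the median count ratio of 0.00912 such a sum is nearly the parent alone and does not bear on the copies. The cause of these moves was not tested. The search for A-rich stretches after the copies and its alternatives were not run, since no genome sequence was used here. No paired analysis was possible because there is 1 group. With 2 libraries, ratios between them have no replicate check, and counts under about 50 fragments are imprecise from counting alone.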
